A study of Mus musculus with 12 samples.

Results

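The genes described here encode 9 receptors of the TNF receptor superfamily on mouse B cells: the BAFF-binding receptors Tnfrsf13c, Tnfrsf13b and Tnfrsf17, the costimulatory receptors Cd40 and Cd27, and the receptors Tnfrsf1a, Tnfrsf1b, Fas and Tnfrsf21, which bind TNF or carry death domains or both. They were chosen by name, and their 9 Ensembl identifiers were taken from the 37991 in the count table. Splenic B cells of 8-week-old mice were purified untouched, with other cell types and CD43+ B cells removed, and sequenced as poly(A) RNA before culture (0 h, rest) or 3 h into activation with anti-IgM plus IL-4. The labels give 4 groups of 3 biological replicates each: CD23-iCre cells (Cre-only) at 0 h, the same at 3 h, CD23iCre/Runx1 ck/o cells (Runx1 c-k/o, also called knockout here) at 0 h, and the same at 3 h. All mice therefore carry the CD23-iCre transgene, and the knockout mice carry in addition a floxed Runx1 whose exon 4 is removed by the Cre, which the CD23 promoter first drives at the transitional stage. How many animals gave 1 replicate is not stated, so the p-values measure the spread between these samples. The comparisons ask which receptor mRNAs differ between the genotypes at each time, and which change in the first hours after the B cell receptor is triggered.

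BAFF is a cytokine on which the survival of mature follicular and marginal zone B cells depends. It binds 3 receptors: BAFF receptor (BAFF-R, Tnfrsf13c), which carries the survival signal, TACI (Tnfrsf13b), which also binds APRIL and restrains B cell numbers, and BCMA (Tnfrsf17), a receptor of plasma cells. Cd40 receives CD40 ligand from helper T cells. Receptors without a death domain recruit TRAF adaptors and activate NF-kB, while TNFR1 (Tnfrsf1a), Fas and DR6 (Tnfrsf21) hold a cytoplasmic death domain. TNFR2 (Tnfrsf1b) binds TNF without a death domain, and Cd27 binds CD70 and marks memory B cells in humans.

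Between 14442251 and 23641552 reads per library were counted on genes. Levels are given as normalized CPM, in which counts are divided by library sizes after TMM scaling, and 3 counts, taken as the floor of detection, amounted to 0.127 to 0.208 CPM before scaling. Such floors cover counting error only. CPM is a share of the counted RNA, and the spike-in RNA that the paper describes adding to each lysate was not used. A rise or fall on activation is therefore relative to the other genes and need not hold per cell. In resting Cre-only libraries the B cell markers Ms4a1 and Cd79a read 1203 to 1285 and 1873 to 2181 CPM, and the 7 T cell markers summed to 30.5 to 85.0 CPM over all libraries. Most of that sum was Lck at 26.4 to 82.2 CPM, while Cd3e and Cd3d, which define T cells, were each under 0.7 CPM in every library. Cd3g reached 0.819 CPM and Cd8a 0.837 CPM. Cd4 read 1.88 to 3.47 CPM in resting libraries and 0 to 0.518 CPM in 3-h libraries. The 5 erythroid markers summed to 36.3 to 254 CPM in resting Cre-only and 246 to 410 CPM in resting knockout libraries. At 3 h these sums were 12.5 to 137 and 115 to 203 CPM. The 7 myeloid markers summed to 213 to 417 CPM over the resting libraries and 17.6 to 46.5 CPM over the 3-h libraries. Runx1 itself read 81.8 to 86.7 CPM in resting Cre-only and 95.7 to 102.7 CPM in resting knockout libraries, and 34.9 to 38.5 and 47.3 to 74.5 CPM at 3 h, but these counts cover the whole gene and do not check the loss of exon 4. Replicate 2 of resting knockout and replicate 1 of 3-h knockout cells stood apart from the other replicates of their groups, with a chi-square per gene of 29.4 to 36.1 and of 57.6 to 80.6 against them, where pairs of Cre-only replicates gave 2.96 to 5.85. Values without 1 or both of these libraries are given for some genes, among them Tnfrsf13c, Fas and Lta, and not for all.

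Sequences before the start sites show how these genes differ in the letters that RUNX proteins bind. RefSeq gives a promoter window of 250 bases before to 50 bases after the start for 8 of the 9 genes, all but Cd40, in GRCm38.p6. Both forms of the RUNX core, TGTGGT and TGCGGT, were searched on both strands. These forms do not overlap each other. TGTGGT was present in 16.8% of all 32851 windows in that table and in 2 of the 8, and TGCGGT in 6.45% of all windows and in 1 of the 8. Either form was present in 22.4% of all windows and in 2 of the 8. Tnfrsf13c was the only one of the 8 with both forms, which 0.804% of all windows held. In Tnfrsf13c, TGCGGT started 131 bases before the start site on the gene's strand. TGTGGT lay on the other strand, and its match, which reads ACCACA on the gene's strand, started 100 bases before the start site. In Tnfrsf17 the match to TGTGGT spanned the start site. A gapped palindrome that STAT6, the factor activated by IL-4, can bind (TTCNNNNGAA) was in 6.95% of all windows and in 0 of the 8. These matches describe letters only. The 250 bases before the start of Tnfrsf13c, the gene whose level differed between genotypes, and of Tnfrsf13b, the other BAFF receptor with a high level, are shown with RUNX letters in capitals, the first at chr15:82224381-82224630 on the minus strand and the second at chr11:61126505-61126754 on the plus strand, 5′ to 3′.
Tnfrsf13c: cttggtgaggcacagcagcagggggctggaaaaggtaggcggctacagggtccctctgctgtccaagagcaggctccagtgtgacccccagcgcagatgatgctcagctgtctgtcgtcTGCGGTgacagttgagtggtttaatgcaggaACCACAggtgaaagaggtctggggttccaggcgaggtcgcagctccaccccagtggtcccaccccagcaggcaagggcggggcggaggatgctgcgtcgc
Tnfrsf13b: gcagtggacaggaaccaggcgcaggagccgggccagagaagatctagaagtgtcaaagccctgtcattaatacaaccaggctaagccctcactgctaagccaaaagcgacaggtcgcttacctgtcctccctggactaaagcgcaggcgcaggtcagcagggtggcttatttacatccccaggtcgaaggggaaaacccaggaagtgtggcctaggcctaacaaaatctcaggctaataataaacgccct

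Levels per length placed Tnfrsf13c first and Tnfrsf17 last or next to last in every group. Divided by the length of the merged exons, Tnfrsf13c stood at 83.9 ± 4.35 CPM per kb (SD, n = 3) in resting Cre-only cells, ahead of Tnfrsf13b at 57.9 ± 2.28, Cd40 at 22.8 ± 0.548 and Tnfrsf1b at 18.8 ± 1.40 CPM per kb. Much lower came Tnfrsf21 at 3.96 CPM per kb, then Fas at 2.24, Tnfrsf1a at 2.01 and Cd27 at 1.84, and last Tnfrsf17 at 0.366 CPM per kb. Samples of neighbors in this order overlapped only from Fas to Tnfrsf1a and from Tnfrsf1a to Cd27. In 3-h Cre-only cells Tnfrsf13c stayed first at 165 ± 2.41 CPM per kb, Tnfrsf1b moved up to second at 53.4 ± 3.52, and Tnfrsf1a fell to last at 0.122 CPM per kb, overlapping Tnfrsf17. The order in knockout cells was the same for the first 4 genes at both times, though Cd40 and Tnfrsf1b overlapped at rest and Fas and Tnfrsf21 at 3 h.

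**Figure D1:**
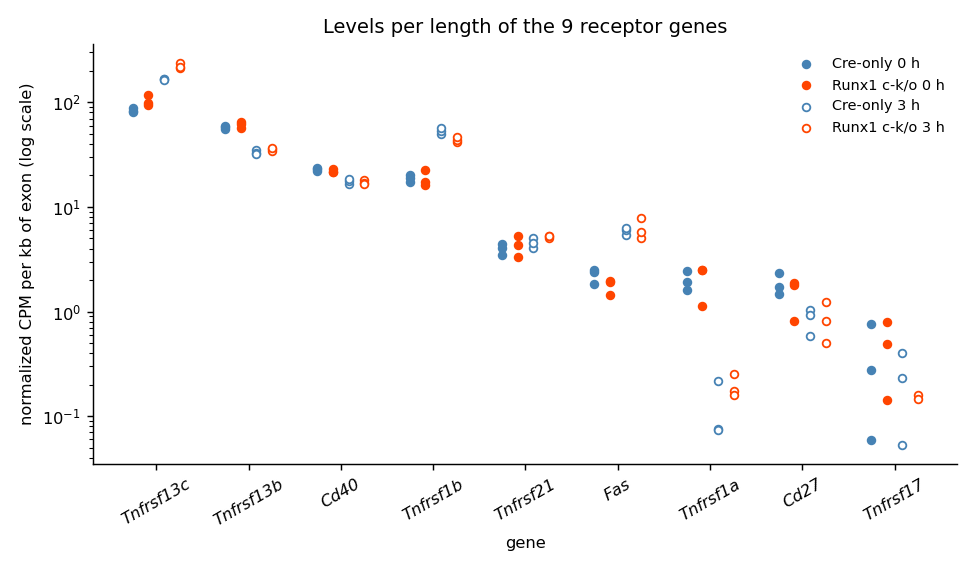
Level of each of the 9 genes in every library, as normalized CPM per kb of exon on a log scale; filled points are 0 h, open points 3 h, blue Cre-only and red Runx1 c-k/o. Tnfrsf13c has the highest level in all groups, and Tnfrsf17, at 0 in 1 library that the log axis cannot show, lies near the floor.

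BAFF-R mRNA lay above the Cre-only level in knockout cells at 0 h and 3 h, and the difference passed the test at 3 h. Tnfrsf13c (ENSMUSG00000068105, chr15:82052174-82054790 on the minus strand in mm9, the build of all gene positions given here, 3 exons, protein coding, with no annotated gene overlapping it) read 167, 181 and 165 CPM in the resting Cre-only libraries, and 201, 238 and 194 CPM in the resting knockout libraries. At 3 h it read 338, 341 and 331 CPM in Cre-only and 484, 438 and 447 CPM in knockout libraries. Every knockout library lay above every Cre-only library of the same time. At 3 h the log2 fold change between genotypes was 0.44 (SE 0.0939, 1.36-fold, 95% interval 0.23 to 0.64, edgeR quasi-likelihood adjusted p = 0.0258), and at rest it was 0.30 (SE 0.0942, 1.23-fold, 95% interval 0.10 to 0.51, adjusted p = 0.200). The change in genotype difference between the times, the interaction, was 0.14 (95% interval -0.15 to 0.43, adjusted p = 0.999). The study itself singled out Tnfrsf13c from these libraries, so its direction is not independent evidence.

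The call on Tnfrsf13c depended on which libraries entered. At 3 h, 8 of 14 alternatives kept it, and their log2 fold changes ran from 0.39 to 0.48. Left out in turn, replicates 1, 2 and 3 of 3-h Cre-only cells gave adjusted p = 0.111, 0.102 and 0.115, and replicate 2 of 3-h knockout cells gave 0.0525, with log2 fold changes of 0.43 to 0.47. Blocking on the replicate number gave an adjusted p of 0.0508, and the fit of the 2 groups alone gave 0.0611. At rest 3 of 14 alternatives called it: DESeq2's Wald test (adjusted p = 0.0429), a fit with 1 RUVs factor of unwanted variation (0.0367), and the fit without both libraries that stood apart (0.0489), in which the log2 fold change was 0.21 at rest and 0.42 at 3 h. The 6 markers of marginal zone B cells, among them Cr2 (CD21), summed to 1189 to 1525 CPM in resting Cre-only and 1675 to 1828 CPM in resting knockout libraries, and to 2624 to 2880 and 2761 to 3525 CPM at 3 h. At each time edgeR called 0 of the 6 between genotypes (1.49% of all genes at rest, 2.77% at 3 h). DESeq2's Wald test called 1 at each time, beside 378 of all 13538 genes at rest and 709 at 3 h. An unadjusted p under 0.05 was found for 3 at each time, beside 11.1% of all genes at rest and 16.2% at 3 h. At rest those 3 (Cr2, S1pr3 and Cd9) were higher in knockout cells, whereas at 3 h Cr2 and Cd9 were higher and Myof was lower. Cr2 made up most of the sum, with 818 to 1075 CPM in resting Cre-only and 1225 to 1411 CPM in resting knockout libraries. At 3 h every knockout library was below every Cre-only library for Myof (112 to 200.2 against 252 to 299 CPM) and S1pr3 (133 to 145 against 161 to 184 CPM). Over all genes, 21.8% did not overlap between genotypes at 3 h. The 6 markers of germinal center or memory B cells summed to 129 to 147 CPM in resting Cre-only and 109 to 125 CPM in resting knockout libraries, and to 39.8 to 46.6 and 29.03 to 42.6 CPM at 3 h. At 3 h edgeR called 1 of them, Mybl1, lower in knockout cells (log2 -1.60, adjusted p = 0.0257), beside 2.77% of all genes called. The sums of these 2 lists did not overlap between genotypes at rest. Those of the 6 plasma cell markers did (1565 to 1674 CPM in Cre-only, 1541 to 1679 CPM in knockout libraries). Irf4 made up most of that sum, at 1312 to 1470 CPM in resting Cre-only and 1270 to 1412 CPM in resting knockout libraries. EdgeR called 1 of the 5 tested plasma cell markers lower in knockout cells at rest, beside 1.49% of all genes called. Sdc1 was lower in every resting knockout library (5.97 to 8.98 against 17.4 to 18.8 CPM), Xbp1 higher (69.9 to 117 against 61.3 to 62.3 CPM), and Prdm1, Jchain and Irf4 overlapped. Over all genes, 23.7% did not overlap between genotypes at rest. The part of these 3 lists in the Tnfrsf13c difference was not tested. In such bulk samples, fewer cells of a type and less RNA per cell cannot be told apart.

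**Figure D2:**
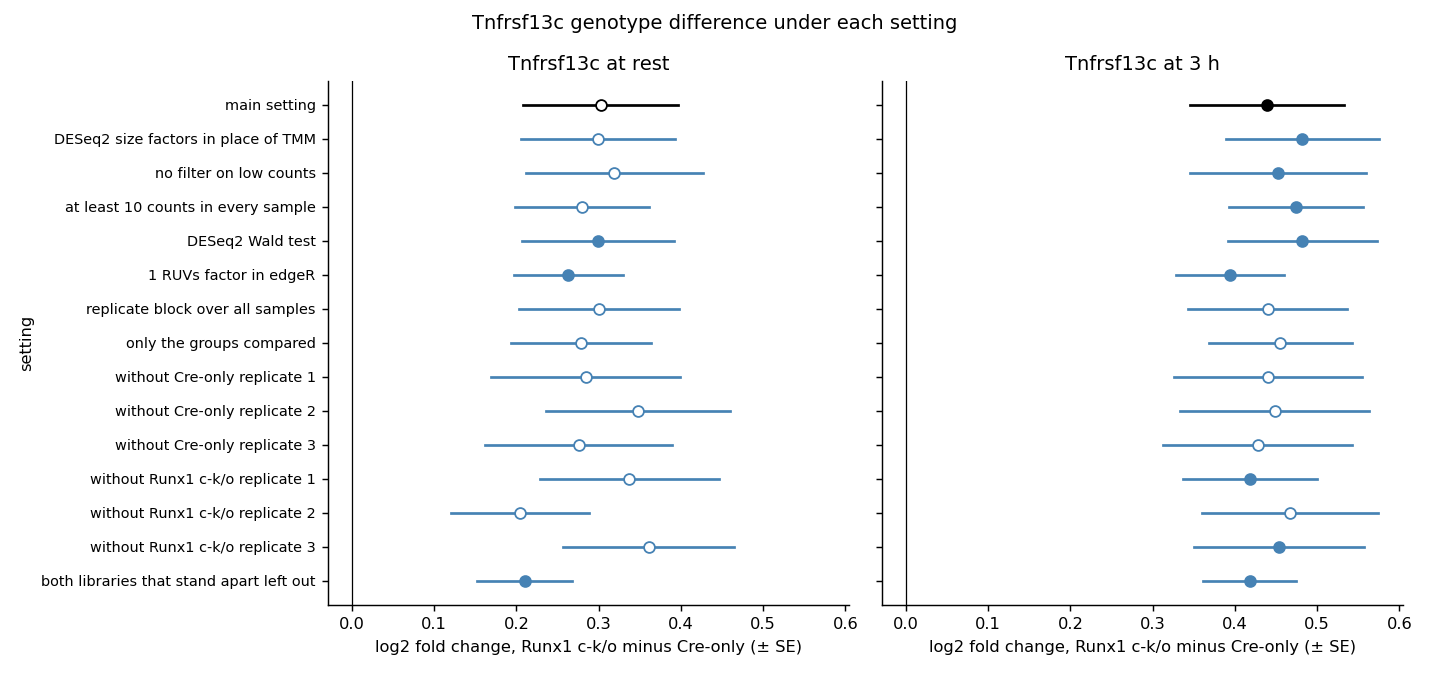
Log2 fold change of Tnfrsf13c, knockout against Cre-only, at rest and at 3 h under each setting, with bars of 1 SE; filled points had an adjusted p under 0.05. All values are above 0, from 0.20 to 0.36 at rest and from 0.39 to 0.48 at 3 h.

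Across the receptors, no genotype difference was called at rest and only that of Tnfrsf13c at 3 h. Of the 9 genes, 8 passed the filter on low counts and were tested. At rest edgeR called 0 of 8, where 1.49% of all 13538 tested genes were called, and 1 had an unadjusted p under 0.05 (11.1% of all genes). DESeq2's Wald test called 1 of 8 at rest, where it called 378 of the 13538 genes. The genotypes did not overlap in 1 of 8 at rest, against 23.7% of all genes. At 3 h 1 of 8 was called, against 2.77% of all genes, and 3 of 8 did not overlap, against 21.8% of all genes. These 3 were Tnfrsf13c, Tnfrsf1b and Tnfrsf21. The interaction was called for 0 of 8 by edgeR, against 0.0813% of all genes, and for 0 of 8 by DESeq2's Wald test, against 83 of 13538 genes. By edgeR 0 of 8 had an unadjusted p under 0.05 for it, against 5.07% of all genes. The median log2 fold change of the 8 between genotypes was 0.00 at rest and 0.09 at 3 h, beside 0.03 and 0.01 over all tested genes.

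**Figure D3:**
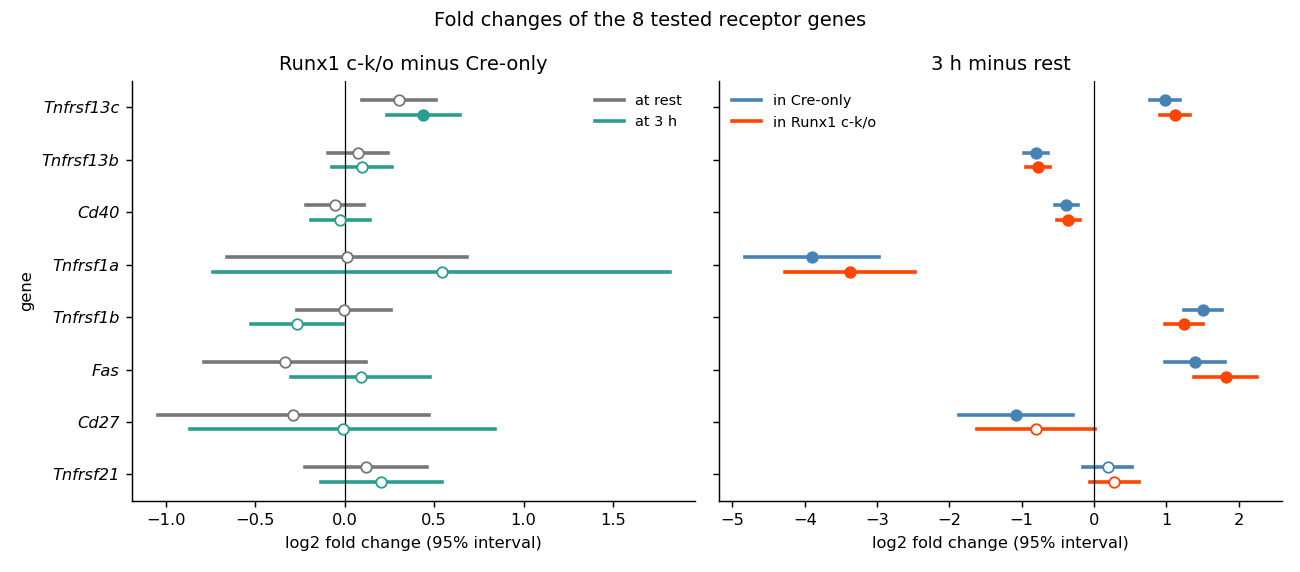
Log2 fold changes with 95% intervals of the 8 tested genes, between genotypes on the left and between 3 h and rest on the right; filled points had an adjusted p under 0.05. Of the genotype differences that of Tnfrsf13c at 3 h is filled, whereas most activation changes are filled in both genotypes.

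Activation changed nearly all of the receptors, some up and some down. In Cre-only cells 7 of 8 were called, 3 higher and 4 lower at 3 h, where 75.0% of all tested genes were called, 38.6% higher and 36.4% lower. In knockout cells 6 of 8 were called, 3 higher and 3 lower, where 74.3% of all genes were called, 37.7% higher and 36.6% lower. The share of receptors that changed was thus near that of all genes. Their median absolute log2 fold change was 1.03 in Cre-only and 0.96 in knockout cells, beside 0.90 and 0.88 over all genes. Libraries of 1 genotype serve both kinds of comparison, so the genotype and the activation values of a gene share samples.

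**Figure D4:**
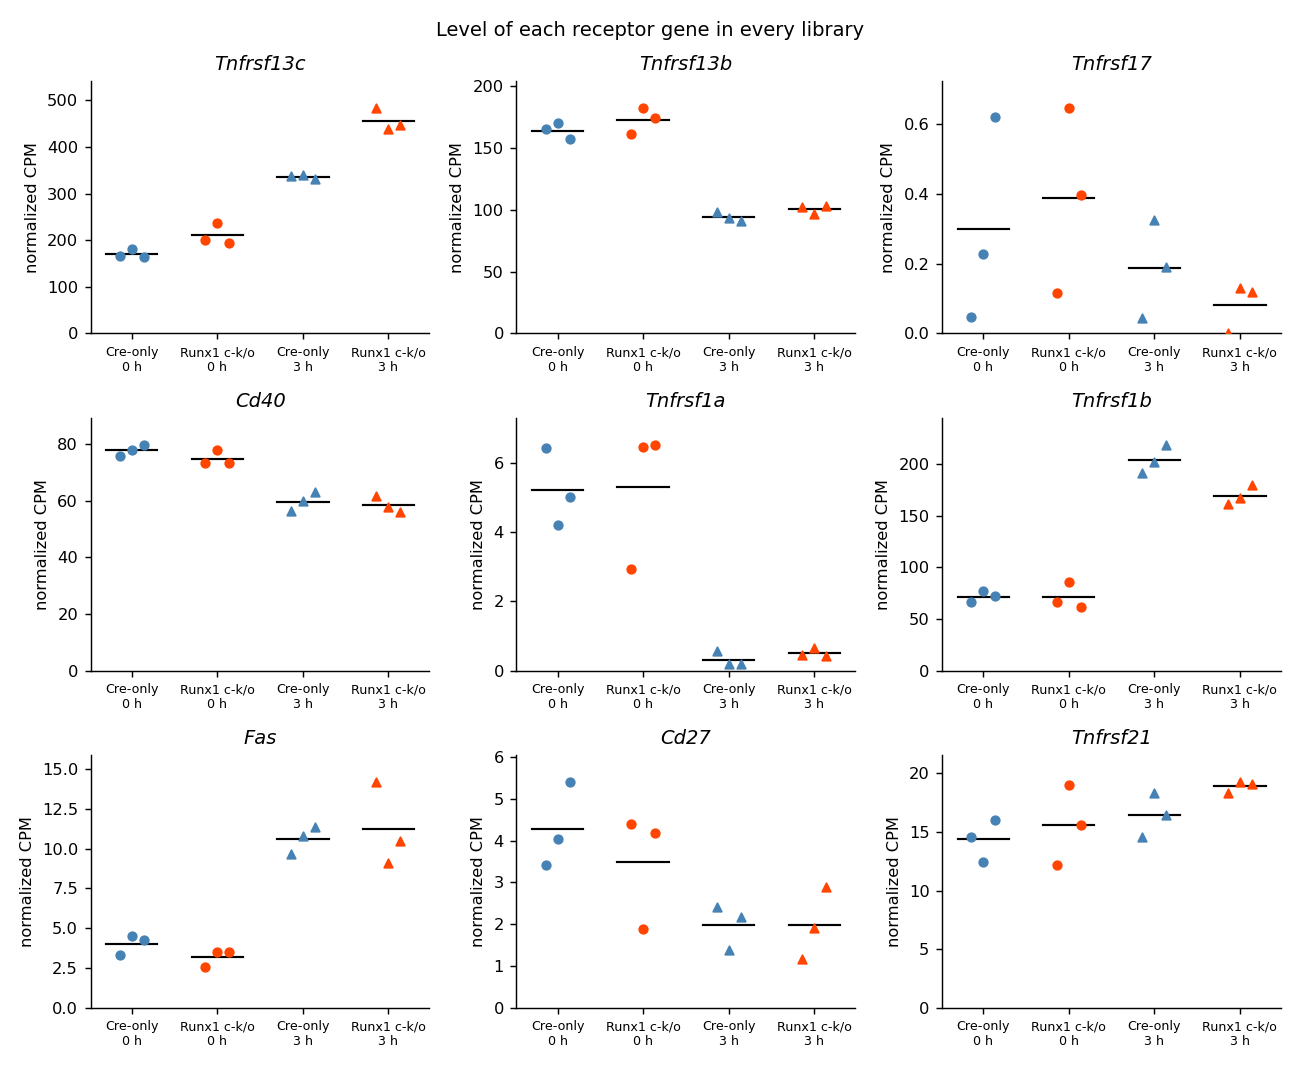
Normalized CPM of each of the 9 genes in every library, with points for replicates 1 to 3 from left to right in a group and a line at the group mean; blue is Cre-only, red Runx1 c-k/o, circles 0 h and triangles 3 h. Tnfrsf13c, Tnfrsf1b and Fas lie higher at 3 h, and Tnfrsf13b, Cd40 and Tnfrsf1a lower, in both genotypes without overlap.

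Tnfrsf13c and Tnfrsf13b moved in opposite directions on activation. Tnfrsf13c rose 1.97-fold in Cre-only cells, from 171 ± 8.86 to 337 ± 4.90 CPM (log2 0.98, SE 0.0948, adjusted p = 1.37e-06), and 2.16-fold in knockout cells, from 211 ± 23.8 to 456 ± 24.004 CPM (log2 1.11, SE 0.0950, adjusted p = 5.37e-07). TACI mRNA fell. Tnfrsf13b (ENSMUSG00000010142, chr11:60940257-60962874 on the plus strand) read 165, 170 and 157 CPM in resting and 98.5, 93.2 and 90.9 CPM in 3-h Cre-only libraries, a log2 fold change of -0.80 (SE 0.0773, adjusted p = 1.31e-06). In knockout cells it read 161, 182 and 174 CPM at rest and 102, 96.3 and 103 CPM at 3 h (log2 -0.78, SE 0.0773, adjusted p = 1.82e-06). The genotypes overlapped at both times, and their difference in log2 fold change was 0.07 at rest (95% interval -0.09 to 0.24) and 0.09 at 3 h (95% interval -0.07 to 0.26). Gm12269 overlaps this gene on the other strand, but not in its exons. Per kb of exon, Tnfrsf13c was above it in all 4 groups without overlap.

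BCMA mRNA was at the limit of detection. Tnfrsf17 (ENSMUSG00000022496, chr16:11313905-11320167, plus strand) had 1, 4 and 10 counts in resting Cre-only, 1, 5 and 3 in 3-h Cre-only, 2, 10 and 6 in resting knockout, and 0, 2 and 2 in 3-h knockout libraries. It did not pass the filter, and a difference between groups was not detectable at this depth.

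Cd40, the receptor for T cell help, was lower after activation by about the same amount in both genotypes. Cd40 (ENSMUSG00000017652, chr2:164881127-164898448, plus strand) read 75.8, 77.8 and 79.6 CPM in resting and 56.2, 59.7 and 63.1 CPM in 3-h Cre-only libraries (log2 -0.38, SE 0.0754, adjusted p = 0.000538). It read 73.4, 77.95 and 73.3 CPM in resting and 61.8, 57.8 and 56.1 CPM in 3-h knockout libraries (log2 -0.35, SE 0.0756, adjusted p = 0.00101). All 3-h libraries lay below all resting libraries. The genotype difference was -0.05 at rest (95% interval -0.22 to 0.11) and -0.03 at 3 h (95% interval -0.19 to 0.14), and the interaction was 0.03 (95% interval -0.20 to 0.26). A change of the size seen for Tnfrsf13c at 3 h lay outside the intervals of both genotype differences.

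The receptors for TNF itself went in opposite directions. TNFR2 mRNA, Tnfrsf1b (ENSMUSG00000028599, chr4:144803366-144836773, minus strand), read 66.02, 76.6 and 72.4 CPM in resting and 192, 202 and 218 CPM in 3-h Cre-only libraries, a 2.85-fold rise (log2 1.51, SE 0.121, adjusted p = 2.87e-07). In knockout libraries it read 66.4, 86.2 and 61.7 CPM at rest and 161, 167 and 179 CPM at 3 h, a 2.37-fold rise (log2 1.24, SE 0.121, adjusted p = 1.56e-06). At 3 h every knockout library was below every Cre-only library, with a log2 difference of -0.27 (SE 0.118, 95% interval -0.53 to -0.01), and its adjusted p = 0.289 by edgeR did not pass the threshold. At rest the genotypes overlapped. The interaction was -0.26 (95% interval -0.63 to 0.10, adjusted p = 0.999).

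TNFR1 mRNA, Tnfrsf1a (ENSMUSG00000030341, chr6:125299380-125312502, plus strand), was low at rest and close to the floor at 3 h. It read 6.41, 4.21 and 5.02 CPM in resting Cre-only libraries and 0.561, 0.196 and 0.191 CPM at 3 h, which were 13, 3 and 3 counts. In knockout libraries it read 2.93, 6.46 and 6.503 CPM at rest and 0.451, 0.656 and 0.412 CPM at 3 h, which were 7, 10 and 7 counts. The log2 fold change on activation was -3.90 in Cre-only cells (SE 0.427, 95% interval -4.83 to -2.97, adjusted p = 4.06e-06) and -3.37 in knockout cells (SE 0.414, 95% interval -4.27 to -2.47, adjusted p = 1.14e-05). Messages of the 7 myeloid markers moved with it: they summed to 247 to 300 CPM in resting and 17.6 to 25.4 CPM in 3-h Cre-only libraries, and to 213 to 417 and 19.2 to 46.5 CPM in knockout libraries. Of these 7 markers, 5 were called lower at 3 h in each genotype, beside 36.4% (Cre-only) and 36.6% (knockout) of all genes. Among the 5 was Csf1r, the receptor for the macrophage growth factor M-CSF, with a log2 fold change of -4.76 in Cre-only cells (SE 0.490). The part of the myeloid markers in the change of Tnfrsf1a was not tested. Genotypes overlapped at both times.

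The death domain receptors Fas and Tnfrsf21 differed in their response. Fas (ENSMUSG00000024778, chr19:34365149-34402260, plus strand), which triggers apoptosis when Fas ligand engages it, read 3.32, 4.50 and 4.28 CPM in resting and 9.67, 10.8 and 11.3 CPM in 3-h Cre-only libraries (log2 1.39, SE 0.191, adjusted p = 2.76e-05). In knockout libraries it read 2.58, 3.49 and 3.52 CPM at rest and 14.2, 9.12 and 10.5 CPM at 3 h (log2 1.82, SE 0.198, adjusted p = 4.19e-06). The 14.2 CPM belongs to the 3-h library that stood apart, and without both such libraries the rise was 1.67 on the log2 scale in knockout and 1.35 in Cre-only cells. The genotype difference was -0.33 at rest (95% interval -0.79 to 0.12) and 0.09 at 3 h (95% interval -0.30 to 0.48). Tnfrsf21 (ENSMUSG00000023915, chr17:43153504-43226137, plus strand) was not called in any comparison. Its levels were 14.6, 12.5 and 16.1 CPM in resting and 14.5, 18.3 and 16.4 CPM in 3-h Cre-only libraries, and 12.2, 19.0 and 15.6 CPM in resting and 18.3, 19.2 and 19.1 CPM in 3-h knockout libraries. The 3-h genotypes did not overlap, by a margin smaller than 0.1 CPM, with a log2 difference of 0.21 (SE 0.154, adjusted p = 0.501 by edgeR). Without replicate 2 of resting knockout, the activation change in knockout cells was 0.45 and passed the test (adjusted p = 0.0150), where the value with it was 0.28 (adjusted p = 0.123).

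Cd27 (ENSMUSG00000030336, chr6:125182640-125187028, minus strand), whose locus Vamp1 overlaps on the other strand outside its exons, was low and fell in Cre-only cells. It read 3.42, 4.04 and 5.39 CPM in resting and 2.42, 1.37 and 2.17 CPM in 3-h Cre-only libraries, without overlap (log2 -1.08, SE 0.363, adjusted p = 0.0169). In knockout libraries it read 4.39, 1.87 and 4.18 CPM at rest and 1.16, 1.90 and 2.89 CPM at 3 h, with overlap (log2 -0.80, SE 0.377, adjusted p = 0.0705). The interaction was 0.28 (95% interval -0.87 to 1.42), so the genotypes are not shown to differ in this change. The Cre-only call was lost without replicate 3 at rest (-0.88, adjusted p = 0.0703) or replicate 2 at 3 h (-0.88, adjusted p = 0.0692). With 1 RUVs factor the value turned to 0.36 in Cre-only and 0.64 in knockout cells, neither called by edgeR. In knockout cells 6 of 15 alternatives called the fall, among them the fit without replicate 2 at rest (-1.09, adjusted p = 0.0110), a library that stood apart.

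The ligands for these receptors were mostly near or under the floor in the B cells themselves. BAFF (Tnfsf13b) had 0 to 6 counts in a library, APRIL (Tnfsf13) 0 to 6, Fas ligand (Fasl) 0 to 6, and CD40 ligand (Cd40lg) 0 to 3 at rest with 0 in all 3-h libraries, while CD70 (Cd70) had 0 counts in every library. Of 16 ligand genes 7 passed the filter. At rest edgeR called 0 of the 7 between genotypes, with 1 at an unadjusted p under 0.05 (11.1% of all genes). DESeq2's Wald test called 0 (378 of all 13538 genes). At 3 h 4 of the 7 had an unadjusted p under 0.05 (16.2% of all genes). DESeq2's Wald test called 2 (709 of all 13538 genes), and edgeR called 1 (2.77% of all genes). That 1 was Lta, the lymphotoxin-alpha gene, which read 2.81, 3.14 and 3.19 CPM in Cre-only and 5.54, 4.33 and 4.59 CPM in knockout libraries (log2 0.67, SE 0.155, adjusted p = 0.0405). This call held in 6 of 14 alternatives, with an adjusted p of 0.0110 to 0.177, and was lost without any of replicates 1, 2 and 3 of 3-h Cre-only (adjusted p = 0.177, 0.112 and 0.0960), without replicate 1 or 2 of 3-h knockout (0.118 and 0.0540), without both libraries that stood apart (0.0584), with the replicate block (0.0800), or with the 2 groups alone (0.152). Tnf, which encodes TNF, read 10.8 ± 0.636 CPM in 3-h Cre-only and 18.1 ± 3.05 CPM in 3-h knockout libraries, a log2 difference of 0.74 (SE 0.213) that did not pass (adjusted p = 0.0963 by edgeR). On activation of Cre-only cells, Tnf rose (log2 1.505, SE 0.234). Tnfsf14, which encodes LIGHT, rose from 0.163 CPM, within the range of the floor, to 1.41 CPM (log2 3.06, SE 0.701). Ltb, the lymphotoxin-beta gene, fell from 251 ± 8.79 to 10.8 ± 2.07 CPM (log2 -4.52, SE 0.319), Lta fell (-2.78, SE 0.144), and Tnfsf18, which encodes GITR ligand, fell from 1.17 ± 0.183 CPM to 0.158 ± 0.0501 CPM, within the range of the floor.

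Among other receptors of the family, 15 of 20 identifiers passed the filter, and 0 were called between genotypes by edgeR at rest or at 3 h. At rest 2 had an unadjusted p under 0.05 (11.1% of all genes) and DESeq2's Wald test called 1 (378 of all 13538 genes). At 3 h these counts were 3 (16.2% of all genes) and 0 (709 of all 13538 genes). In Cre-only cells 6 rose and 7 fell on activation, and in knockout cells 5 rose and 7 fell, beside 75.0% and 74.3% of all genes called. Tnfrsf8 (CD30) rose from 0.396 to 3.07 CPM (log2 2.91, SE 0.381), Tnfrsf9 (4-1BB) from 0.346 to 2.50 CPM (2.84, SE 0.367), and Tnfrsf22, a decoy receptor for TRAIL, from 3.17 to 14.5 CPM (2.19, SE 0.194), all from low levels. Ngfr, a receptor for nerve growth factor, fell from 5.04 to 0.0871 CPM, Ltbr, the lymphotoxin-beta receptor, from 2.13 to 0.164 CPM, and Tnfrsf19 from 4.36 to 0.647 CPM (log2 -2.72, SE 0.261), where the first 2 ended at or under the floor.

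Downstream of the receptors, of 20 TRAF and death domain genes, 0 were called between genotypes by edgeR at rest or at 3 h, while 8 rose and 10 fell in Cre-only cells, where 75.0% of all genes were called. Between genotypes 2 had an unadjusted p under 0.05 at rest and 8 at 3 h, beside 11.1% and 16.2% of all genes. DESeq2's Wald test called 0 and 4, beside 378 and 709 of all 13538 genes. Cflar, which encodes the caspase-8 inhibitor c-FLIP, rose from 117 to 560 CPM (log2 2.26, SE 0.132), Traf1 from 41.2 to 148 CPM (1.84, SE 0.171) and Tank from 102 to 244 CPM (1.26, SE 0.0862). Traf5 fell from 82.9 to 20.2 CPM (-2.04, SE 0.113), Traf3ip3 from 146 to 44.6 CPM (-1.71, SE 0.112) and Traf3ip2, the adaptor Act1, from 50.003 to 21.8 CPM (-1.19, SE 0.0932). Of 17 NF-kB subunits, inhibitors and kinases, 9 rose and 2 fell in each genotype, beside 75.0% (Cre-only) and 74.3% (knockout) of all genes called. Between genotypes edgeR called 0 of the 17 at rest or at 3 h. DESeq2's Wald test called 0 and 1, beside 378 and 709 of all 13538 genes. An unadjusted p under 0.05 was found for 1 at rest and 3 at 3 h, beside 11.1% and 16.2% of all genes. Nfkb1, which encodes p105 and p50, rose in Cre-only cells (log2 1.61, SE 0.121), as did the inhibitor genes Nfkbie (1.48, SE 0.111) and Nfkbib (1.15, SE 0.181). Ikbkb, which encodes the kinase IKK-beta, fell (-0.65, SE 0.101), as did Tab2 (-0.22, SE 0.0922).

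Of 19 genes that control survival and death, among them targets of BAFF-R signaling, 17 were tested, and 0 were called between genotypes by edgeR at rest or at 3 h, with median log2 differences of 0.20 and 0.28 beside 0.03 and 0.01 over all genes. An unadjusted p under 0.05 was found for 6 at rest and 4 at 3 h, beside 11.1% and 16.2% of all genes. DESeq2's Wald test called 2 and 1, beside 378 and 709 of all 13538 genes. In Cre-only cells 8 rose and 7 fell on activation, and in knockout cells 7 rose and 5 fell, beside 75.0% and 74.3% of all genes called. Bcl2l1, which encodes the survival protein Bcl-xL, rose from 5.78 to 108 CPM (log2 4.22, SE 0.389). Bcl2, another survival gene, fell from 108 to 10.5 CPM (-3.36, SE 0.238), and Bmf, which encodes a killer protein that binds Bcl-2, fell from 101 to 13.1 CPM (-2.95, SE 0.275). The paralogs Bcl2a1d (2.78, SE 0.380), Bcl2a1b (2.22, SE 0.357) and Bcl2a1a (-2.79, SE 0.792) share nearly identical sequence, and reads may have been split between them, so their separate values are uncertain, and the last ended near the floor at 0.187 CPM.

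**Figure D5:**
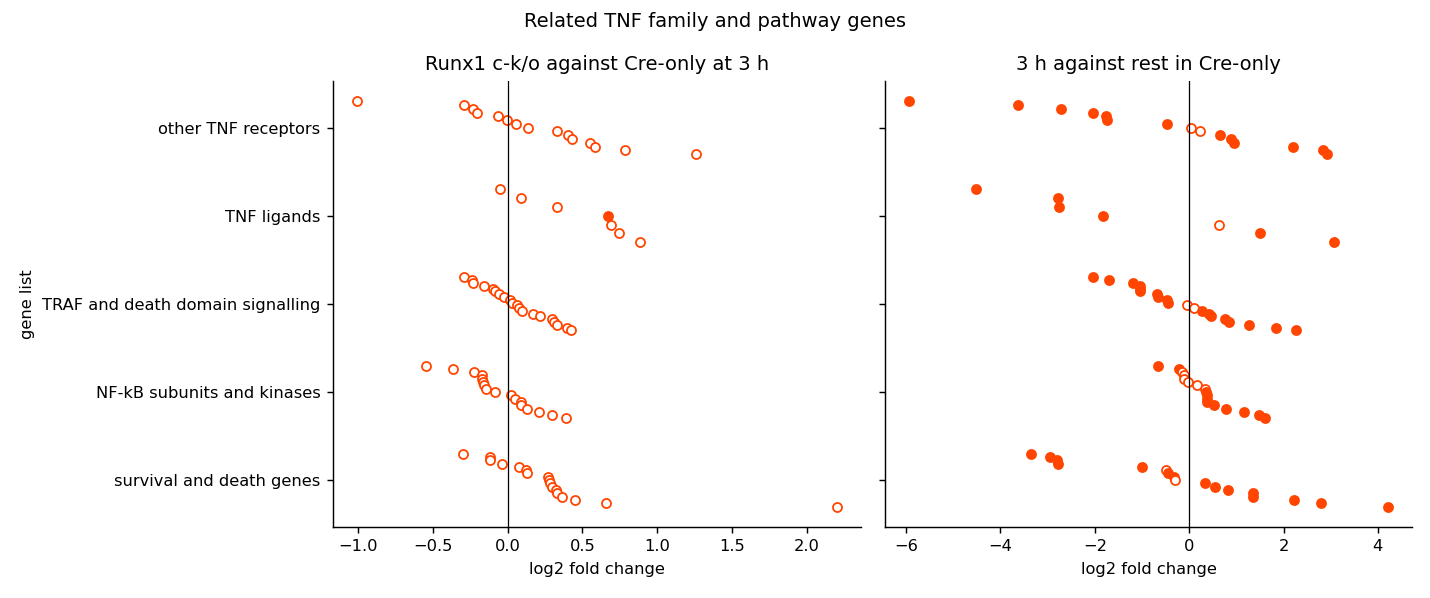
Log2 fold changes of the tested genes in 5 related lists, between genotypes at 3 h on the left and between 3 h and rest in Cre-only cells on the right; each point is 1 gene, filled where the adjusted p was under 0.05, and points are spread vertically within a list for sight. Lta is the filled point on the left, while most points on the right are filled.

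Genes with a pattern most like that of Tnfrsf13c over the 12 libraries, by Pearson correlation of log2 CPM, were Mapre2 (r = 0.994), B3gnt7 (0.993) and Prodh (0.989), and 2967 genes had r above 0.9. For Cd40 they were Pdgfc (0.992), Izumo4 (0.982) and Gm16598 (0.981), and for Tnfrsf13b Endod1 (0.991), Cd48 (0.991) and Pafah1b3 (0.991). These values describe 12 libraries that share the change on activation. Over the same libraries Tnfrsf13c had r = 0.888 with Tnfrsf1b and 0.893 with Fas, and -0.872 with Tnfrsf13b and -0.908 with Cd40.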

How the data were processed

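Poly(A) RNA of resting B cells, Cre-only or Runx1 c-k/o, was sequenced at 0 h and at 3 h of activation, in 12 samples and 4 groups of 3. From stranded libraries, the authors aligned paired reads to mm9 with TopHat2 2.0.11 (CASAVA 1.8.4 is also named in the submitters' processing notes) and deposited raw featureCounts counts per Ensembl release 66 gene, not normalized, with strand and multimapping settings not given in the sources used here. The members and lists were chosen with earlier results of these data known. Positions and exon lengths came from the GENCODE annotation of mm9 (Ensembl release 65), and promoters from RefSeq.

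In edgeR 4.0.16 (R 4.3.3), filterByExpr with a minimum of 10 counts kept 13538 of 37991 genes, followed by TMM and a robust quasi-likelihood fit of 4 groups over all 12 samples. Adjusted p-values are Benjamini-Hochberg over all tested genes, called under 0.05, and 95% intervals use the fitted standard error. Lists other than the 9 receptors were named by the 3 smallest adjusted p each way between genotypes, and the 3 largest called changes each way on activation in Cre-only cells. Alternatives were DESeq2 1.42.0, its size factors, other count filters, 1 RUVs factor, blocks on the replicate number, the compared groups alone and each library left out. After the data were seen, a fit without both libraries that stood apart was added. Cre-only samples with the same number at 0 h and 3 h deviated together (r 0.144 to 0.275), so their numbers were taken to pair them, unlike in Runx1 c-k/o samples (-0.264 to 0.254). The main fit used no block. Knockout samples deviated together under unlike numbers: replicate 2 at 0 h with 1 at 3 h (r = 0.477), 3 with 2 (0.309) and 1 with 3 (0.268). Blocks on the replicate number therefore need not fit knockout samples. The fits were checked on simulated counts with known changes. With 3 samples against 3, an exact permutation test of 1 gene cannot give a p under 0.1.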

Additional observations from a re-analysis of the deposited data

How the results depend on the processing

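Over the alternatives to each gene's values, 555 kept direction and side of the threshold, 11 came to pass it, 8 no longer passed and 44 turned sign. The count of receptors called between genotypes at rest was 0, and 1 (Tnfrsf13c) with DESeq2's Wald test, with 1 RUVs factor or without both libraries that stood apart. At 3 h it was 1, and 0 with the replicate block over all samples or with only the groups compared. Leaving out 1 library gave 0 to 1. The replicate block within genotype, which fits the pairing of Cre-only samples, changed no call on activation of Cre-only cells (7 of 8). The block over all samples added Cd27 in knockout cells (7 of 8), whose numbers are not shown to pair samples.

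All sign changes were in values that were not called, except that of Cd27 on activation of Cre-only cells. At rest, Tnfrsf1a between genotypes became -0.0403 with 1 RUVs factor, -0.0154 with the groups compared alone and -0.16 without both libraries that stood apart, Tnfrsf1b became 0.0125 with no filter, and Cd27 became 0.0162 and Tnfrsf21 -0.0479 without both libraries. At 3 h, Cd40 became 0.0169 with DESeq2 size factors, 0.00998 with at least 10 counts in every sample and 0.0178 with DESeq2's Wald test. Fas became -0.0353 with 1 RUVs factor and -0.0833 without both libraries. Cd27 became 0.0243 with DESeq2 size factors, 0.0024 with no filter, 0.0182 with at least 10 counts, 0.0275 with the Wald test, 0.17 with 1 RUVs factor, 0.0066 with the groups compared alone and 0.27 without both libraries. On activation, 1 RUVs factor turned Cd27 to 0.36 in Cre-only and 0.64 in knockout cells. The cause of these changes was not tested.

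When single libraries were left out, the genotype difference at rest ran from -0.16 to 0.31 for Tnfrsf1a, -0.16 to 0.0907 for Tnfrsf1b, -0.49 to 0.0073 for Cd27 and -0.0514 to 0.27 for Tnfrsf21. At 3 h it ran from -0.0682 to 0.0154 for Cd40, -0.0854 to 0.22 for Fas and -0.39 to 0.27 for Cd27. The interaction ran from -0.0268 to 0.0638 for Tnfrsf13b, -0.0126 to 0.0700 for Cd40, -0.11 to 0.57 for Cd27 and -0.0665 to 0.26 for Tnfrsf21.

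Over all genes, the calls at rest were 202 by edgeR, and 378 by DESeq2's Wald test, 524 with 1 RUVs factor and 598 without both libraries. At 3 h they were 375, 709, 1036 and 914, with 158 for the compared groups alone, and for the interaction 11, 83, 142 and 187. Leaving out 1 library gave 81 to 140 calls at rest, 180 to 617 at 3 h and 4 to 31 for the interaction. With at least 10 counts in every sample, Tnfrsf1a was not tested. Depth limits Tnfrsf17, and Tnfrsf1a at 3 h, which lay near the floor.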
